A study of Bos taurus with 14 samples.

Results

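The receptors for prolactin and growth hormone, the transcription factor STAT5B and their feedback inhibitors were followed in the mammary gland of dry Holstein cows under different day lengths, sampled by biopsy. The members were PRLR, GHR, JAK2, STAT5B, SOCS2, SOCS3 and CISH, taken as every probe set whose only annotated gene symbol is one of these. This gave 17 of the 24016 probe sets tested: 11 for GHR, 2 for SOCS3 and 1 each for PRLR, STAT5B, SOCS2 and CISH. JAK2, the kinase bound to both receptors, had no probe set under its symbol and was not analysed here. Where 1 value per gene is given, it comes from the gene's probe set of the highest mean over the 14 arrays.

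Tissue was taken in the dry period, the weeks before calving in which a cow is not milked. Short day (SD) cows had 8 h of light and 16 h of dark each day, and long day (LD) cows had 16 h of light and 8 h of dark. Lights came on at the same hour in both, and all cows had been dried off about 60 d ahead of the predicted calving. The groups were SD at day -9 (4 arrays), LD at day -9 (4 arrays), SD at day -24 (3 arrays) and LD at day -24 (3 arrays), counted in days relative to calving. The labels do not name the cow behind each array or say whether one cow gave biopsies at both days, so p-values measure the spread between these samples. Lactating cows and cows before the light treatment were not analysed here.

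Prolactin and growth hormone come mainly from the pituitary and act on related single-pass receptors that carry no kinase of their own. Hormone binding activates JAK2, which phosphorylates STAT5A and STAT5B, and these enter the nucleus and switch on target genes that in the mammary gland include milk protein genes. Among the targets are SOCS2, SOCS3 and CISH, whose SH2 domain proteins act back on the receptors or on JAK2 and dampen the signal, so their transcripts are often read as a sign of recent receptor activity. Day length changes circulating prolactin in cattle, which makes the prolactin receptor and these inhibitors a natural set to examine in a photoperiod study.

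Values are log2 signals from an Affymetrix bovine array, on which 1 unit is a 2-fold difference. They can be compared between arrays for 1 probe set, but not as amounts of RNA from one probe set to another. Bright and dim below describe the signal only. The median of an array was 6.43 to 6.61 and its lower quartile 4.47 to 4.73. The tissue label was checked with the milk protein genes CSN2, CSN3, LALBA and PAEP, whose mean log2 signal per array was 12.89 to 13.32 (SD) and 12.87 to 13.14 (LD) at day -9 and 12.72 to 13.10 (SD) and 12.73 to 13.30 (LD) at day -24. None of the 4 was below the array's lower quartile, whereas 5 of 8 skeletal muscle markers and 5 of 7 erythrocyte markers were dim. In biopsies of whole tissue, fewer cells of a type and less RNA per cell cannot be told apart.

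A pair of arrays stood apart, LD day -9 replicate 4 and SD day -24 replicate 3. Both had signals that fell short of every one of the remaining 12 arrays by 0.7 or more in 280 probe sets, with 126 named genes, against 11 probe sets for the next pair of arrays. PRLR is among the 280, and no other member is. On controls that read the 3-prime and 5-prime ends of 5 transcripts, the mean 3-prime minus 5-prime log2 difference, which grows as RNA is shorter or less completely copied, was 1.21 and 1.33 on these arrays and 0.804 to 1.26 on the others. The part of RNA quality in the low signals was not tested, and results that rest on these arrays are given with and without them.

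No member passed the test in any comparison. With limma fitted across all probe sets and Benjamini-Hochberg adjustment at 0.05, 0 of 24016 probe sets (0%) were called in each of 7 contrasts. At an unadjusted p under 0.05, 0 of 17 member probe sets stood out for SD minus LD at day -9, where 2.77% of all probe sets did, and 1 of 17 at day -24, where 2.42% did. For SD minus LD averaged over days it was 1 of 17 against a background of 1.94%. For day -9 minus day -24, the counts were 0 of 17 in SD (background 4.56%), 1 of 17 in LD (background 7.47%) and 1 of 17 averaged over photoperiods (background 7.72%). For the interaction, which is SD minus LD at day -9 less SD minus LD at day -24, it was 0 of 17 (background 4.15%). The member differences were also spread around 0: at day -9, 10 were above and 7 below 0 with a median of 0.05, against a median of 0.00 over all probe sets, and at day -24, 8 were above and 9 below with a median of -0.01, against 0.01. Of the 17, 11 are GHR probe sets, most of them dim, so these counts mainly describe 1 gene. By the probe set of highest mean, PRLR and GHR were above 0 at day -9 and STAT5B, SOCS2, SOCS3 and CISH below. At day -24, GHR, STAT5B and SOCS3 were above 0 and PRLR, SOCS2 and CISH below.

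**Figure D1:**
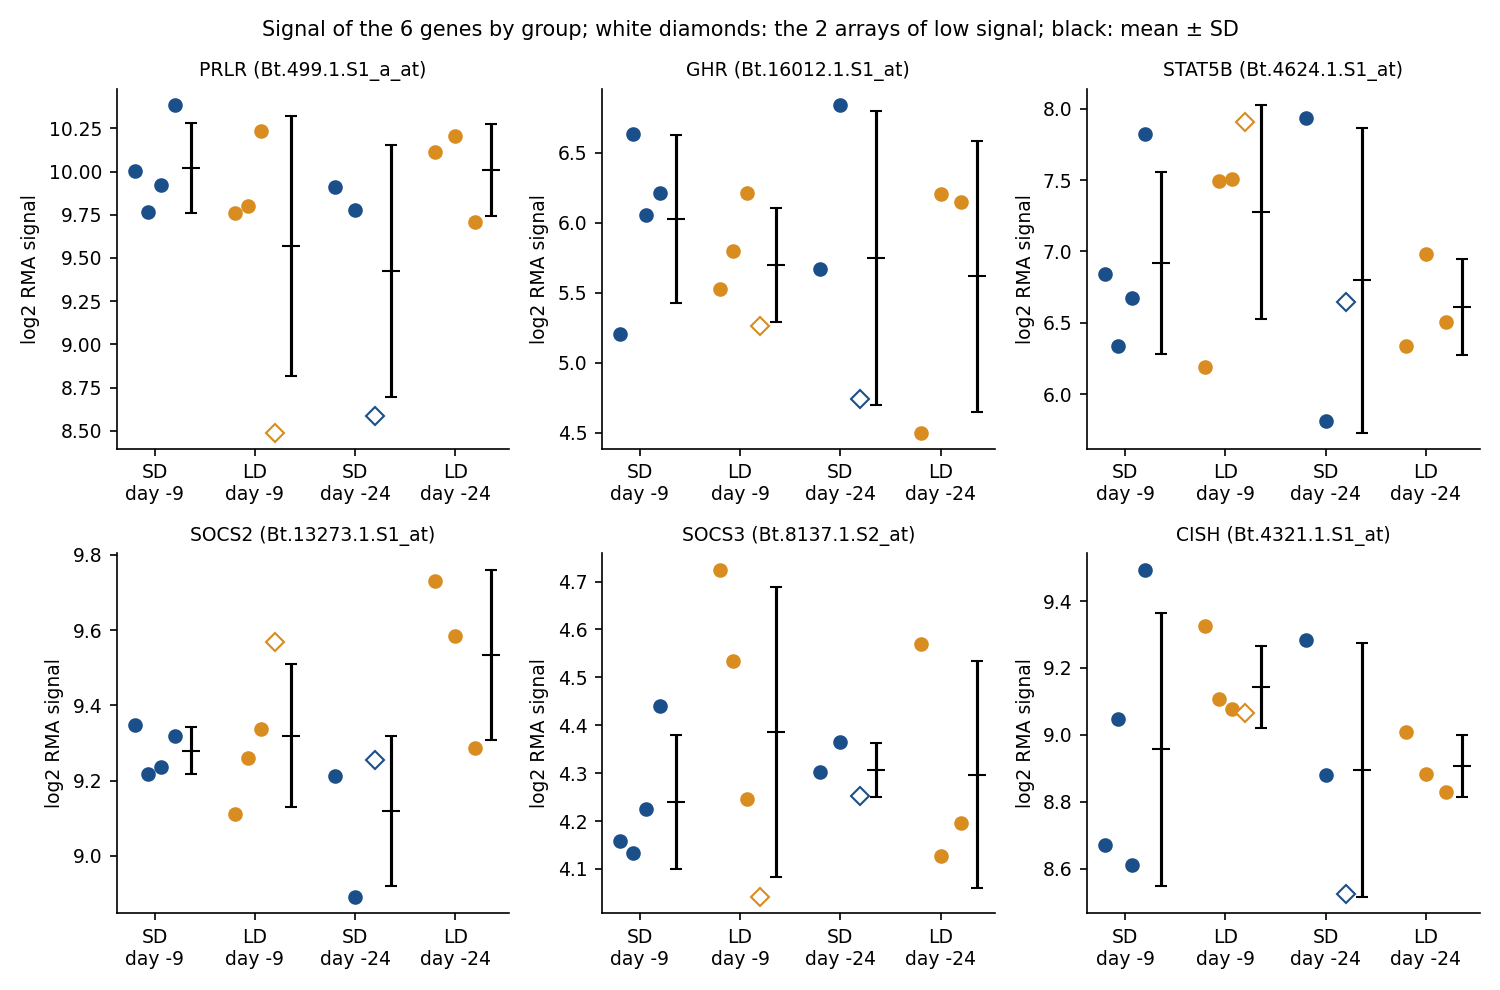
Log2 signal of the highest-mean probe set of PRLR, GHR, STAT5B, SOCS2, SOCS3 and CISH, with a point per array and the mean and standard deviation of each group. PRLR shows 1 low array in LD at day -9 (8.49) and 1 in SD at day -24 (8.59), while SOCS2 in SD at day -24 (8.89 to 9.26) lies below LD at day -24 (9.29 to 9.73).

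PRLR, the prolactin receptor, was read by a single probe set. Its log2 signal was 10.003, 9.77, 9.92 and 10.38 in SD at day -9, against 9.76, 9.80, 10.23 and 8.49 in LD at day -9. At day -24 it was 9.91, 9.78 and 8.59 in SD, against 10.11, 10.20 and 9.71 in LD. Apart from 8.49 and 8.59, every array lay between 9.71 and 10.38, and the photoperiods overlapped at both days. The standard deviation of PRLR was 0.56 over all 14 arrays, which exceeded that of 93.4% of probe sets. Over the 12 arrays without the pair of low signal it was 0.22, which exceeded that of 50.9% of them.

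By group, PRLR averaged 10.02 ± 0.26 in SD and 9.57 ± 0.75 in LD at day -9 (standard deviation after ±, n = 4 each), and 9.43 ± 0.73 in SD and 10.01 ± 0.27 in LD at day -24 (n = 3 each). From high to low the order was SD day -9, LD day -24, LD day -9 and SD day -24, and neighbours in it differed by less than the larger standard deviation of the pair. SD minus LD was 0.45 at day -9 (95% interval -0.31 to 1.21, limma adjusted p = 0.984) and -0.58 at day -24 (-1.46 to 0.30, adjusted p = 1.0). Day -9 minus day -24 was 0.59 in SD (-0.23 to 1.42) and -0.44 in LD (-1.26 to 0.38). The interaction was 1.03 with a standard error of 0.54, an unadjusted p of 0.0776 and a limma adjusted p of 0.900.

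These PRLR differences rested on the pair of arrays of low signal. Without both, SD minus LD was 0.09 at day -9 (-0.31 to 0.49) and -0.16 at day -24 (-0.64 to 0.31). The interaction was then 0.25 (-0.37 to 0.87, unadjusted p = 0.391). All 3 intervals hold 0.

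The genes whose 14-array pattern was most like that of PRLR were ARHGEF12 (Pearson r = 0.98), LIN7C, a scaffold protein of cell polarity (0.98), and YWHAZ, a 14-3-3 protein (0.96). Each of the 3 is also among the genes low on both of those arrays. ARHGEF12 lay at 8.01 to 8.04 there and at 9.20 to 9.86 on the other 12, LIN7C at 6.38 to 6.54 and at 8.53 to 9.37, and YWHAZ at 6.20 to 6.75 and at 7.86 to 8.59. Over the other 12 arrays r was 0.89 for ARHGEF12, 0.85 for LIN7C and 0.76 for YWHAZ. Likeness is given as a description: the genes were picked for it, and all points share their arrays.

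**Figure D2:**
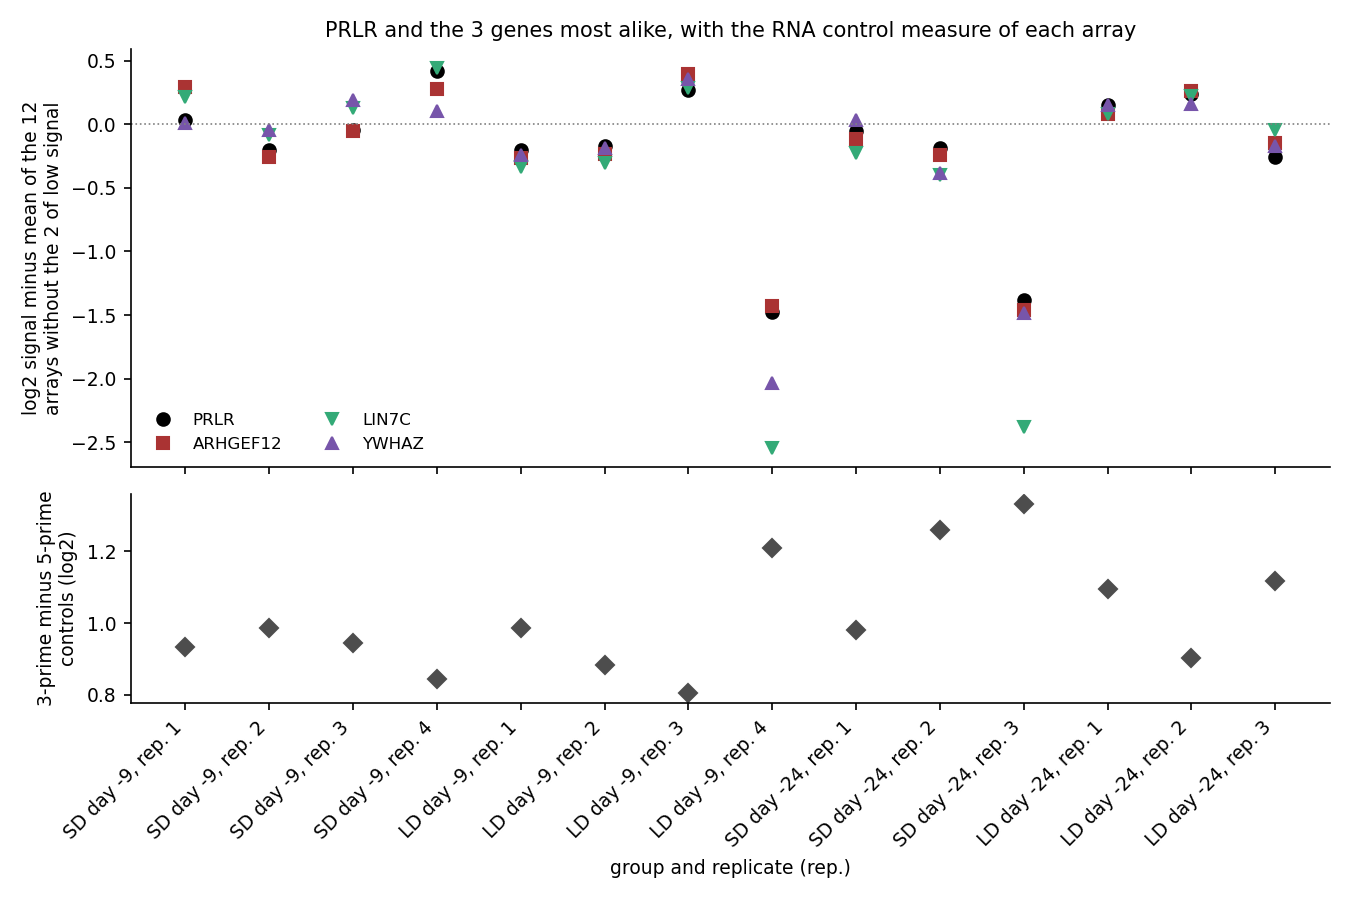
Upper panel, log2 signal of PRLR, ARHGEF12, LIN7C and YWHAZ on each array minus the gene's mean over the 12 arrays without the 2 of low signal; lower panel, the mean 3-prime minus 5-prime log2 difference of the control transcripts. All 4 genes lie lowest on LD day -9 replicate 4 and SD day -24 replicate 3, where the control difference is 1.21 and 1.33, while SD day -24 replicate 2 has 1.26 without such low values.

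GHR, the growth hormone receptor, had 11 probe sets, and the values here are those of the brightest. Its log2 signal was 5.21, 6.64, 6.06 and 6.22 in SD at day -9, against 5.53, 5.80, 6.21 and 5.26 in LD at day -9. The day -24 arrays read 5.67, 6.84 and 4.74 in SD, against 4.502, 6.20 and 6.15 in LD. Values within each group were widely spread and all groups overlapped. The standard deviation over 14 arrays, 0.68, exceeded that of 96.7% of probe sets, against a median probe set value of 0.245.

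Group means of GHR were 6.03 ± 0.60 in SD and 5.70 ± 0.41 in LD at day -9 (n = 4 each), and 5.75 ± 1.05 in SD and 5.62 ± 0.97 in LD at day -24 (n = 3 each). SD day -9 was highest, then SD day -24, LD day -9 and LD day -24, again with neighbours closer than their standard deviations. SD minus LD was 0.33 at day -9 (95% interval -0.69 to 1.35) and 0.13 at day -24 (-1.04 to 1.30). Leaving out 1 array at a time, the day -9 value ran from 0.13, without SD day -9 replicate 2, to 0.60, without SD day -9 replicate 1. The intervals are wide enough to hold a 2-fold difference either way at day -24. Leaving out the arrays of low signal turned the day contrast in SD to -0.23, against 0.28 with them, and the interaction to -0.45, against 0.20.

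GHR was set against markers of other cells. Across the 14 arrays its r with the mean signal of 11 fibroblast and matrix genes was 0.71 (permutation p = 0.00458, adjusted over 78 relations 0.334) and a Spearman coefficient of 0.70 (p = 0.0067, adjusted 0.245). Without the 2 arrays farthest from the median of the markers, r was 0.72. With 8 neutrophil markers r was -0.67 (permutation p = 0.00856, adjusted 0.334) and the Spearman coefficient -0.77 (p = 0.00219, adjusted 0.171), and r was -0.58 without the farthest 2. These were the largest of several: r was -0.56 for erythrocyte, -0.56 for skeletal muscle, -0.54 for B and plasma cell and -0.48 for milk protein markers. For the remaining lists r ran from -0.29 (macrophage and dendritic) to 0.05 (myoepithelial). No relation of GHR with a marker list passed the adjustment. Fibroblast markers averaged 10.04 to 10.34 (SD) and 10.04 to 10.65 (LD) at day -9 and 10.004 to 10.44 (SD) and 10.12 to 10.39 (LD) at day -24, so the groups overlapped in these cells' signal. Neutrophil markers averaged 5.38 to 7.06 (SD) and 5.91 to 7.06 (LD) at day -9 and 5.71 to 6.72 (SD) and 6.13 to 6.71 (LD) at day -24, with 2 of the 8 dim. Macrophage and dendritic markers were the only list whose photoperiods did not overlap at day -9, with 7.93 to 8.55 (SD) and 8.62 to 9.19 (LD). At day -24 they averaged 8.27 to 8.34 (SD) and 8.31 to 8.62 (LD), which overlap. The part of any of these cell types in the GHR values or in those of the other members was not tested.

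The other 10 GHR probe sets were dim. The second brightest, with a mean of 4.51, was below the array's lower quartile on 5 of 14 arrays, and the remaining 9, with means between 2.13 and 4.00, on 13 or 14. Over the 55 pairs of GHR probe sets, Pearson's r across arrays ran from -0.57 to 0.87 with a median of 0.10, so they do not follow 1 common pattern. Cattle make GHR transcripts that differ in their untranslated first exon, but the files do not say which transcript a probe set reads. By the letter in their names, 7 of the 11 are of kind A and 4 of kind S. The sources used here do not give the strand each kind reads, and whether the A probe sets read GHR mRNA was not tested. Another pair of probe sets is annotated to both GHR and its neighbour FBXO4 and was not counted as members.

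**Figure D3:**
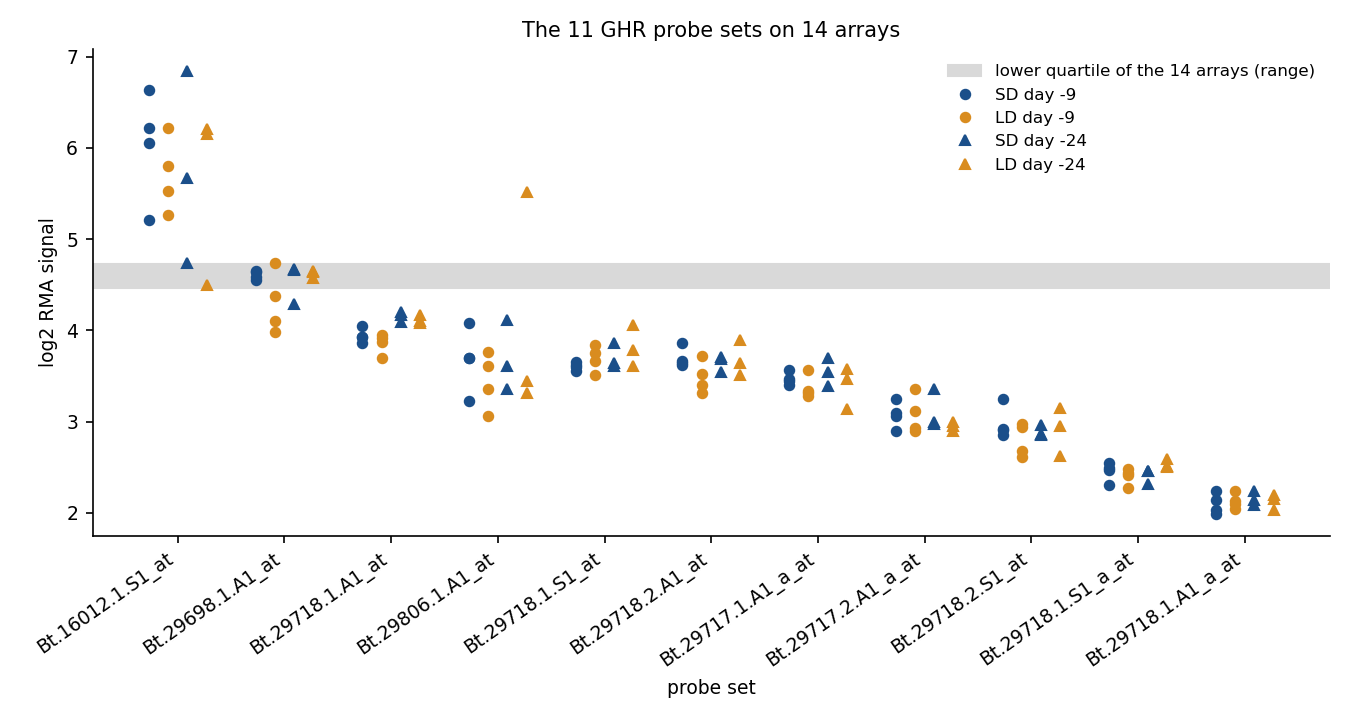
Log2 signal of the 11 GHR probe sets on the 14 arrays, ordered by mean, with points for single arrays in the 4 groups and a grey band over the arrays' lower quartiles (4.47 to 4.73). The brightest spans 4.502 to 6.84, and the dimmest has a mean of 2.13.

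Among these dim probe sets, the third brightest of the 11 (mean 4.00) had the smallest p of any member. It is one of the A probe sets. Its log2 signal was 3.87 to 4.05 at day -9 against 4.09 to 4.21 at day -24 in SD, and 3.70 to 3.95 at day -9 against 4.08 to 4.17 at day -24 in LD. The days did not overlap in either photoperiod. Averaged over photoperiods, day -9 minus day -24 was -0.24 with a standard error of 0.07, an unadjusted p of 0.00472 and a limma adjusted p of 0.636. It was below the lower quartile on all 14 arrays, and the brightest GHR probe set had 0.28 in SD and 0.08 in LD for the same contrast. The fourth brightest GHR probe set had 5.52 on LD day -24 replicate 1 and 3.06 to 4.11 on every other array.

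STAT5B, which with the closely related STAT5A carries the signal to the nucleus, was read by a single probe set. Its log2 signal was 6.84, 6.34, 6.67 and 7.82 in SD at day -9, against 6.19, 7.49, 7.51 and 7.91 in LD at day -9. At day -24 it was 7.93, 5.82 and 6.65 in SD, against 6.34, 6.98 and 6.51 in LD. The values overlapped throughout, and the highest and the lowest of all 14 arrays both came from SD at day -24. STAT5A had no probe set under its symbol and was not analysed here.

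STAT5B averaged 6.92 ± 0.64 in SD and 7.27 ± 0.75 in LD at day -9 (n = 4 each), and 6.80 ± 1.07 in SD and 6.61 ± 0.34 in LD at day -24 (n = 3 each). LD day -9 was highest, then SD day -9, SD day -24 and LD day -24, and neighbours differed by less than their standard deviations. SD minus LD was -0.36 at day -9 (95% interval -1.35 to 0.64) and 0.19 at day -24 (-0.96 to 1.33). In LD, day -9 minus day -24 was 0.67 (-0.40 to 1.74, limma adjusted p = 0.706). Leaving out 1 array at a time, SD minus LD at day -9 ran from -0.72, without LD day -9 replicate 1, to -0.14, without LD day -9 replicate 4. The day contrast in LD ran from 0.46, without LD day -9 replicate 4, to 1.03, without LD day -9 replicate 1 (unadjusted p = 0.0485). Like GHR, it was more variable over the 14 arrays (standard deviation 0.69) than 96.8% of probe sets. The genes most like STAT5B were MAP2K4, a kinase of the JNK pathway (r = 0.91), MOB3B, a protein of the MOB kinase activator family (0.90), and TXNL1, a thioredoxin-like protein (0.89), while for GHR they were TMEM106C (0.89), ABHD10 (0.86) and TADA2A (0.84).

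SOCS2, the inhibitor whose loss makes mice grow beyond normal size, was the member with the smallest p between photoperiods. Its log2 signal was 9.35, 9.22, 9.24 and 9.32 in SD at day -9, against 9.11, 9.26, 9.34 and 9.57 in LD at day -9. The day -24 arrays read 9.21, 8.89 and 9.26 in SD, against 9.73, 9.58 and 9.29 in LD. Every SD array at day -24 lay below every LD array of that day, though 9.26 and 9.29 nearly touch, and at day -9 the groups overlapped.

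Its difference at day -24, SD minus LD, was -0.41 with a standard error of 0.15 and a 95% interval from -0.74 to -0.09, which is 1.33-fold. The unadjusted p was 0.0174, rank 125 of 24016, and the limma adjusted p was 1.0. At day -9 SD minus LD was -0.04 (-0.32 to 0.24), and the interaction was 0.37 (-0.06 to 0.81, unadjusted p = 0.0857). Averaged over days, SD minus LD was -0.23 (-0.44 to -0.01, unadjusted p = 0.0419).

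With 1 array left out at a time the unadjusted p at day -24 ran from 0.00535 to 0.0858, the highest without SD day -24 replicate 2. SOCS2 was not among the probe sets low on the arrays that stood apart. Leaving both out gave -0.48 at day -24 (-0.82 to -0.14, unadjusted p = 0.00954) and 0.53 for the interaction (0.08 to 0.97, unadjusted p = 0.0238). Neither passed the adjusted threshold. Those arrays held the highest SOCS2 value of their groups, 9.26 in SD at day -24 and 9.57 in LD at day -9. Leaving them out therefore moves both differences away from 0 and is no test of their stability. By group it averaged 9.28 ± 0.06 in SD and 9.32 ± 0.19 in LD at day -9 (n = 4 each), and 9.12 ± 0.20 in SD and 9.53 ± 0.23 in LD at day -24 (n = 3 each). LD day -24 was highest, then LD day -9, SD day -9 and SD day -24, and each step was within the larger standard deviation of the neighbours. ADCY1, an adenylate cyclase, TBKBP1, an adaptor of the kinase TBK1, and C2CD4B were most like it, each with r of 0.80. The Spearman coefficients were 0.67, 0.71 and 0.76. ADCY1 and TBKBP1 were dim, with means of 4.35 and 3.665 below the arrays' lower quartiles, and C2CD4B had a mean of 5.01.

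CISH, one of the classic STAT5-induced inhibitors, had a log2 signal of 8.67, 9.05, 8.61 and 9.49 in SD at day -9, against 9.32, 9.11, 9.08 and 9.07 in LD at day -9. At day -24 it read 9.28, 8.88 and 8.52 in SD, against 9.01, 8.88 and 8.83 in LD. SD arrays straddled the LD arrays at both days. SD minus LD was -0.19 at day -9 (95% interval -0.61 to 0.23) and -0.01 at day -24 (-0.50 to 0.48). The day -9 value ran from -0.37, without SD day -9 replicate 4 (unadjusted p = 0.0547), to -0.07, without SD day -9 replicate 3.

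In LD the CISH values of day -9 were all above those of day -24, by 0.24 on average (unadjusted p = 0.283 with the spread shared over groups). Means were 8.96 ± 0.41 in SD and 9.14 ± 0.12 in LD at day -9 (n = 4 each), and 8.90 ± 0.38 in SD and 8.91 ± 0.09 in LD at day -24 (n = 3 each). LD day -9 was highest, then SD day -9, LD day -24 and SD day -24, and neighbours were closer than the larger of their standard deviations. The genes most like CISH were GJB2, a gap junction protein (r = 0.90), DECR1, an enzyme of fatty acid oxidation (0.88), and NDUFV2, a subunit of respiratory complex I (0.84), and without the arrays of low signal their r was 0.90, 0.85 and 0.86.

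SOCS3, an inhibitor of JAK kinases best known from cytokines that act through gp130, was near the lower end of the signal range. The brighter of its 2 probe sets read 4.16, 4.13, 4.22 and 4.44 in SD at day -9, against 4.72, 4.53, 4.25 and 4.04 in LD at day -9. The day -24 arrays read 4.30, 4.36 and 4.25 in SD, against 4.57, 4.13 and 4.19 in LD. It lay below the array's lower quartile on 12 of 14 arrays, and the groups overlapped. SD minus LD was -0.15 at day -9 (95% interval -0.47 to 0.18) and 0.01 at day -24 (-0.37 to 0.39). With 1 array left out at a time the day -9 value ran from -0.26, without LD day -9 replicate 4, to -0.034, without LD day -9 replicate 1. Group means were 4.24 ± 0.14 in SD and 4.39 ± 0.30 in LD at day -9 (n = 4 each), and 4.31 ± 0.06 in SD and 4.30 ± 0.24 in LD at day -24 (n = 3 each). LD day -9 was highest, then SD day -24, LD day -24 and SD day -9, with neighbours closer than the larger of their standard deviations.

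The second SOCS3 probe set was dimmer still. It had 2.93 to 3.31 (SD) and 3.03 to 3.29 (LD) at day -9, and 3.26 to 3.44 (SD) and 3.14 to 3.23 (LD) at day -24. At day -24 the photoperiods did not overlap, with SD 0.20 above LD (unadjusted p = 0.136), while the brighter SOCS3 probe set did not separate them. LOC512905 (r = 0.75), POU2AF1, a B-cell coactivator (0.75), and SCAMP2, a membrane trafficking protein (0.74), were most like the brighter SOCS3 probe set. Their Spearman coefficients were 0.55, 0.74 and 0.55.

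Counted over all 17 member probe sets, the groups did not overlap in 3 for SD against LD at day -24, where 5.67% of all probe sets did not, and in 0 at day -9, where 2.46% did not. The 3 were SOCS2 and the second dimmest GHR probe set (mean 2.45), lower in SD, and the dimmer SOCS3 probe set, higher in SD. Between days, 1 did not overlap in SD (background 5.9%), the third brightest of GHR, lower at day -9, and 3 in LD (background 8.98%), which were that one and the second dimmest of GHR, lower at day -9, and CISH, higher at day -9. At 17 probe sets the shares rest on very few members.

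**Figure D4:**
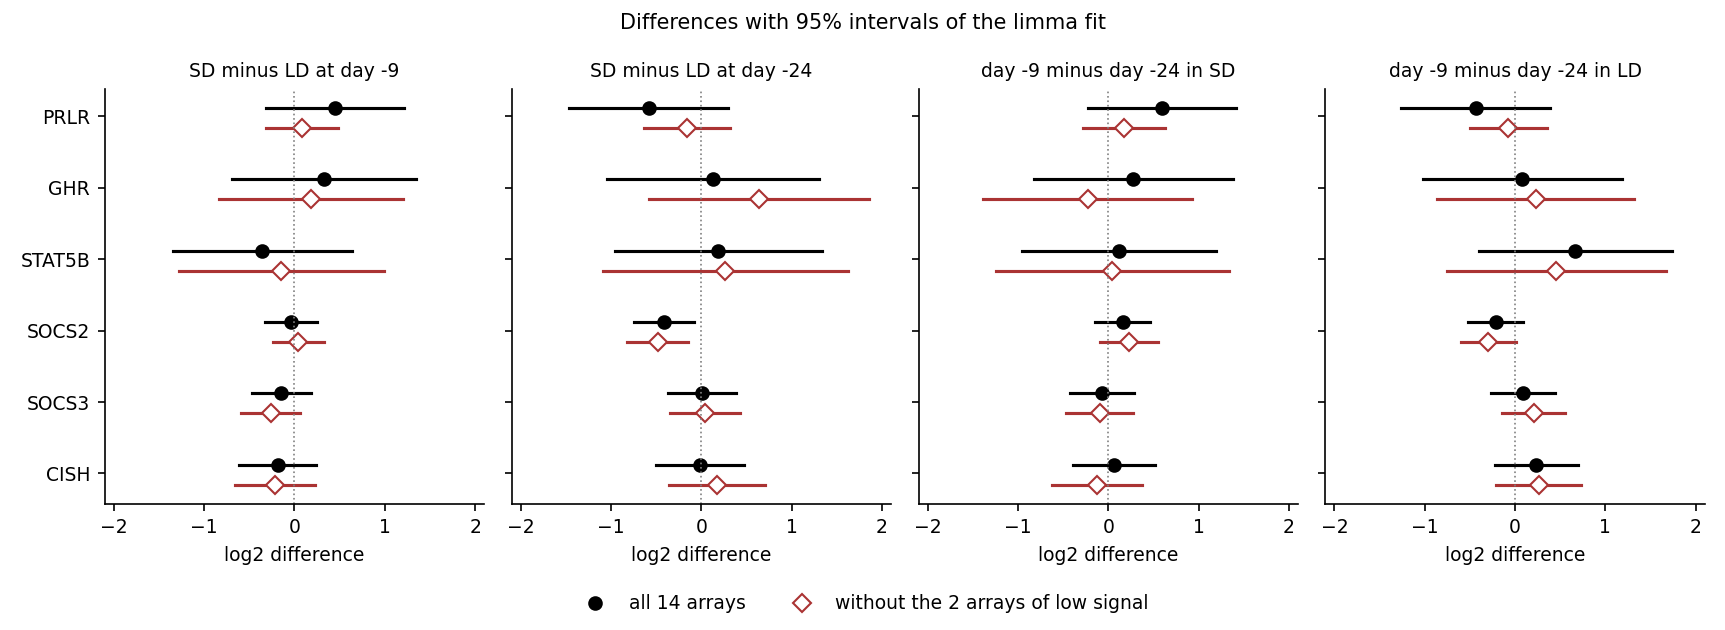
Log2 differences of the 6 members with a probe set, with 95% intervals of the limma fit, for SD minus LD at day -9 and at day -24 and for day -9 minus day -24 in SD and in LD, with all 14 arrays and without the 2 of low signal. At day -24 SD minus LD is -0.58 for PRLR with all arrays and -0.16 without those 2, while for SOCS2 it is -0.41 and -0.48.

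The members were also set against each other across arrays, in 15 relations with p-values adjusted over them. PRLR falls in separate clusters on the 14 arrays, so its relations were taken over the 12 arrays without the pair of low signal. There PRLR and SOCS2 had r of 0.58 (permutation p = 0.0468, adjusted 0.313) and a Spearman coefficient of 0.67 (permutation p = 0.0209, adjusted 0.313), and r was 0.79 without the 2 arrays farthest from the PRLR median. GHR and SOCS2 over 14 arrays had r of -0.54 (permutation p = 0.0444, adjusted 0.313) and a Spearman coefficient of -0.34. No relation passed the adjustment. Over the same 12 arrays PRLR had r of -0.58 with the 3-prime minus 5-prime difference (permutation p = 0.0493, adjusted over 78 relations 0.481) and a Spearman coefficient of -0.71 (p = 0.0122, adjusted 0.245), and r was -0.47 without the farthest 2. With T and natural killer cell markers, PRLR had r of -0.62 over these arrays (permutation p = 0.0325, adjusted 0.474), and -0.64 without the farthest 2. The Spearman coefficient was -0.50 (p = 0.0992, adjusted 0.774). The part of RNA quality or of these cells in the PRLR values was not tested.

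Around the members, 6 lists of hormones, related receptors, kinases and adaptors, STAT factors, negative regulators and STAT5 target genes name 126 further genes, of which 84 were measured. None passed the limma test in any contrast. At an unadjusted p under 0.05, 1 of 84 (1.19%) was higher in SD at day -9 and 2 of 84 (2.38%) were lower in SD at day -24, close to or below the 2.77% and 2.42% of all probe sets. Between days averaged over photoperiods, 4 of 84 (4.76%) stood out, below the background of 7.72%. For the interaction it was 1 of 84 (1.19%), below the background of 4.15%.

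The hormone genes PRL and GH1 were represented by 6 probe sets each, whose mean log2 signals ran from 2.88 to 11.45 for PRL and from 3.15 to 9.04 for GH1. Whether each reads the gene it is annotated to was not tested. The brightest PRL probe set had 11.29 to 11.61 in SD and 11.30 to 11.63 in LD at day -9, and 11.37 to 11.63 in SD and 11.22 to 11.44 in LD at day -24, which overlap.

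PTPN2, a phosphatase that removes phosphate from JAK and STAT proteins, had the smallest p of the listed genes for the interaction. Its brightest probe set read 10.13, 9.83, 10.18 and 10.14 in SD at day -9, against 9.75, 9.78, 10.0001 and 9.81 in LD at day -9. At day -24 it read 9.71, 9.76 and 9.84 in SD, against 10.10, 10.20 and 10.25 in LD. All SD arrays lay below all LD arrays at day -24, and the order was mostly the opposite at day -9, with some overlap. SD minus LD was 0.23 at day -9 and -0.41 at day -24, and the interaction was 0.65 with a standard error of 0.16 (unadjusted p = 0.00142, limma adjusted p = 0.900). The other 2 PTPN2 probe sets had SD minus LD of -0.35 and 0.23 at day -24 and of 0.13 and -0.09 at day -9, so they did not all follow that pattern.

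Among STAT5 target genes, 26 of 33 were measured. CSN1S2, the casein alpha-S2 gene, read 12.53, 11.52 and 11.67 in SD at day -24, against 12.81, 12.31 and 12.44 in LD at day -24, a difference of -0.61 (unadjusted p = 0.0470). One SD array, at 12.53, lay among the LD arrays. At day -24, 5 of the 26 were above and 21 below 0 with a median of -0.06, and at day -9, 16 were above and 10 below with a median of 0.05, against medians over all probe sets of 0.01 and 0.00. Genes of a list share their arrays, so such counts are not of separate observations. LD day -24 replicate 1 averaged 13.30 for CSN2, CSN3, LALBA and PAEP, against 12.83 and 12.73 on the other LD arrays of that day. Some listed genes went the other way there, such as CCND1 (6.04 against 7.58 and 7.05). The part of that array in the day -24 counts was not tested. IGF1 and MYC are the 2 genes of this list that are also low on both arrays that stood apart, and MYC had SD minus LD of 0.36 at day -9 and -0.78 at day -24. Without both arrays, an alternative chosen after seeing the data, 14 of the 26 were above and 12 below 0 at day -9 and 10 above and 16 below at day -24, with medians of 0.02 and -0.05. For LALBA, which encodes alpha-lactalbumin of the lactose synthase, day -9 minus day -24 averaged over photoperiods was 0.59 (unadjusted p = 0.0239, limma adjusted p = 0.636).

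For the other lists the medians lay no farther than 0.12 from 0 in both photoperiod contrasts. Of 17 negative regulators, 10 were above and 7 below 0 at day -9 and 8 above and 9 below at day -24. Of 10 related receptors, 8 were above and 2 below at day -9 and 3 above and 7 below at day -24, and of 19 kinases and adaptors, 7 were above and 12 below at day -9 and 13 above and 6 below at day -24. Over all probe sets, 50.2% were above 0 at day -9 and 52.7% at day -24. Without both arrays of low signal the day -24 counts were 11 above and 6 below for negative regulators, 4 above and 6 below for related receptors, and 10 above and 9 below for kinases and adaptors. In the same order, the day -9 counts were then 10 above and 7 below, 8 above and 2 below, and 8 above and 11 below. Between days, averaged over photoperiods, USP18, an interferon-induced protease, differed by -0.39 (unadjusted p = 0.00361, limma adjusted p = 0.636). GAB1, a docking protein of receptor tyrosine kinases, differed by 0.29 (unadjusted p = 0.0249, limma adjusted p = 0.636) and STAT6 by 0.19 (unadjusted p = 0.0388, limma adjusted p = 0.639).

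**Figure D5:**
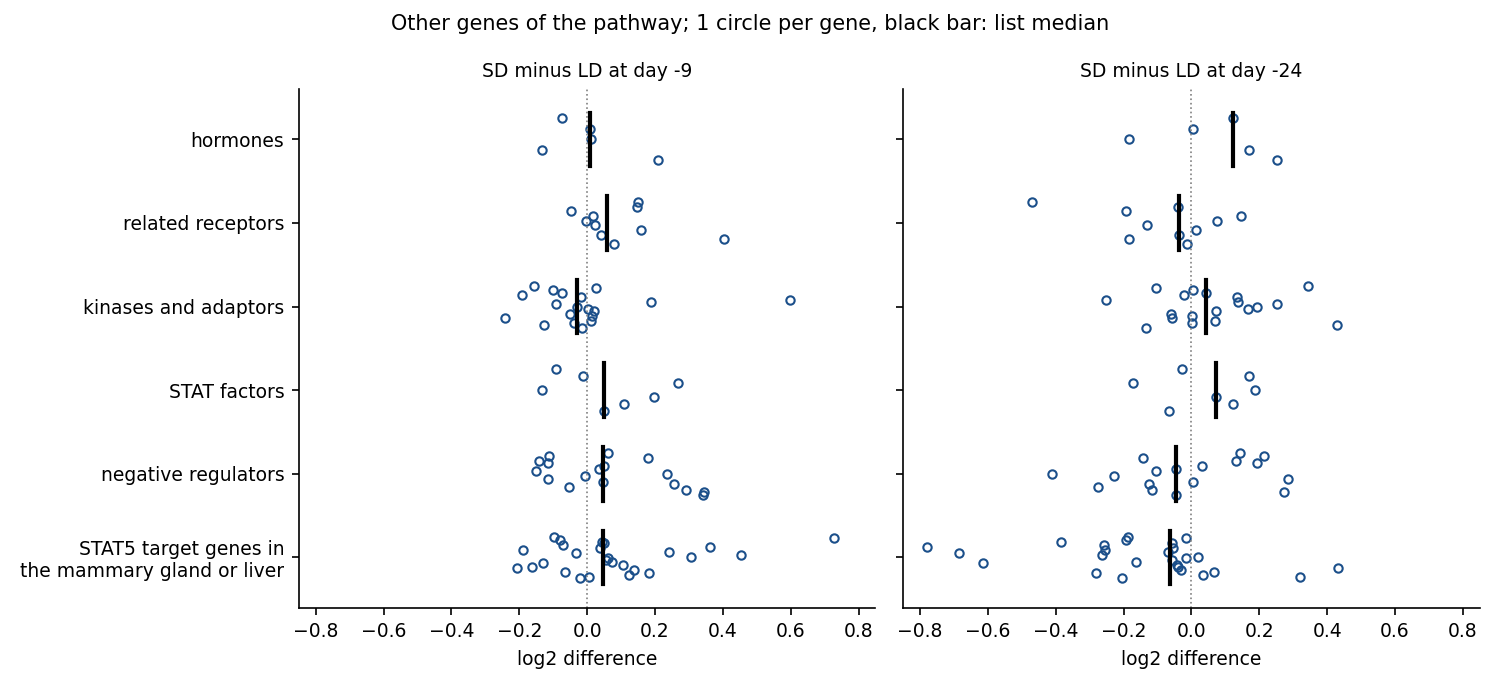
Log2 differences of the 84 measured pathway genes by list for SD minus LD at day -9 and at day -24, with a point per gene and a bar at the median of the list. The STAT5 target genes have a median of 0.05 at day -9 and -0.06 at day -24, and single genes lie on both sides of 0 in every list.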

How the data were processed

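Total RNA of 14 biopsies was hybridised to Affymetrix bovine arrays, from RNA with an integrity number over 7, per the labels. The authors deposited log2 values, 1 per probe set and array, summarised by RMA per the submitters' processing notes. They were taken as deposited. The tests omit 112 control probe sets. Symbols came from the array annotation, in which 13292 probe sets carry 1 symbol (9155 genes). No genome build or sequence was used. A model of 4 group means with 7 contrasts was fitted with limma 3.58.1 (R 4.3.3), and p-values were adjusted over 24016 probe sets by Benjamini-Hochberg, with a threshold of 0.05. On simulated arrays of this layout the fit recovered 62% of 2-fold and 95% of 4-fold changes for SD minus LD at day -9, and 59% and 91% at day -24. It also called 9 unchanged probe sets in each comparison. The noise was drawn separately for each probe set, without effects shared by a whole array, and the changed probe sets were picked at random. These shares are averages: PRLR, GHR and STAT5B vary more than most probe sets, and recovery for the members was not simulated.

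The members and lists were chosen with earlier results of these data known. Every member is named. Most other pathway genes were named by smallest p within their list, but IGF1 and MYC for low signal on the pair of arrays that stood apart. The genes most alike were named by Pearson's r over 14 arrays, 3 per member. Relations across arrays were tested with 100000 permutations, two-sided. Markers are means of log2 values over a list's genes. Replicate numbers were not taken as pairs. Alternatives were other normalizations and filters, array weights, replicate blocks, the mean of a gene's probe sets, and arrays left out.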

Additional observations from a re-analysis of the deposited data

Results flagged for a closer look

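CISH in LD at day -9 held a sample far from the others: replicate 1 had 9.32, and the remaining arrays had 9.11, 9.08 and 9.07. The gap between replicate 1 and its nearest neighbour was 0.840 of the group's whole range, above Dixon's critical value of 0.829 for 4 samples. It was the only one of 34 member groups of 4 arrays past that value, and chance flags about 1 in 20 groups. The range of the group was small, and the standard deviation was 0.41 in SD and 0.12 in LD at day -9.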

How the results depend on the processing

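Of 732 values of 32 member results under other settings, 692 kept their direction and 40 changed sign, none passed the threshold, and the lowest adjusted p was 0.426. Many of the 692 could not change sign. Filtering probe sets, fitting only the groups compared, or leaving out an array of another group leaves the difference itself unchanged. The 692 are therefore no measure of stability. With array weights, SD minus LD at day -24 was -0.20 for GHR and 0.17 for CISH, SD minus LD at day -9 was 0.0032 for SOCS2, day -9 minus day -24 in SD was -0.32 for STAT5B and -0.11 for CISH, and in LD -0.30 for GHR. Without both arrays of low signal, SD minus LD was 0.17 for CISH at day -24 and 0.043 for SOCS2 at day -9, day -9 minus day -24 in SD was -0.23 for GHR and -0.13 for CISH, and the GHR interaction was -0.45. With the mean of a gene's probe sets, GHR was -0.023 for SD minus LD at day -24 and -0.14 for the day contrast in LD. With median centring SOCS3 was -0.0054 at day -24. With a random replicate block CISH was 0.00022 at day -24, and with a fixed replicate block the day contrast in SD was -0.13 for STAT5B and -0.016 for CISH. The fixed replicate block called 0 probe sets. It left PRLR at -0.58 for SD minus LD at day -24, which the design fixes, because both groups hold the same replicate numbers. Among the 3 or 4 arrays of the other day in their photoperiod, 7 of 12 arrays correlated best with their own number. Deviations from the group means correlated above 0.1 in 4 of 6 same-number pairs and 4 of 18 other pairs of a photoperiod. Within a day it was 3 of 7 same-number pairs and 1 of 18 others. Where both day and photoperiod differed, it was 2 of 6 same-number pairs and 6 of 18 others, which shows no such excess. The consensus correlation of the random replicate block was 0.056. Whether the numbers mark pairs cannot be told from these values, and the design does not say. Leaving out 1 array at a time, SD minus LD at day -24 ran from -0.43 to 0.64 for GHR, -0.38 to 0.68 for STAT5B, -0.075 to 0.15 for SOCS3 and -0.21 to 0.17 for CISH, and at day -9 from -0.11 to 0.043 for SOCS2. The day contrast in SD ran from -0.23 to 0.82 for GHR, -0.37 to 0.69 for STAT5B and -0.13 to 0.25 for CISH, and in LD from -0.48 to 0.37 for GHR and -0.024 to 0.22 for SOCS3. The interaction ran from -0.31 to 0.76 for GHR, -1.04 to 0.021 for STAT5B and -0.36 to 0.018 for CISH. PRLR kept its sign, from 0.09 to 0.67 at day -9 and -0.83 to -0.16 at day -24, and SOCS2 at day -24 ran from -0.54 to -0.30. The number of probe sets called for the day contrast in SD was 1, a probe set with no symbol here, without SD day -24 replicate 3 or without both arrays of low signal, and for SD minus LD averaged over days it was 1, AGA, without SD day -9 replicate 3, so each ran from 0 to 1 as arrays were left out. The causes were not tested. The number of arrays limits the precision, and SOCS3 and most GHR probe sets lie below the arrays' lower quartiles.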
